A study of Mus musculus with 54 samples.

Results

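Daily transcript rhythms of 8 genes were followed in 54 mouse livers. The genes are Rgs16, Usp2, Upp2, Nrg4, Pcsk4, Dtx4, Lgalsl and Hacl1. These 8 of the 24346 gene symbols measured were picked by name because their rhythms in wild-type liver are large and are lost or changed in 2 genotypes with altered Bmal1. Their 24 h rhythms, and their differences from wild type, therefore chose them and are given as a description without a test. The label under which they were grouped, outputs of a local clock, is taken from that choice: liver-specific loss of Bmal1 was not a group of this study.

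WT mice have Bmal1, listed under the symbol Arntl, in every tissue. KO mice carry Bmal1 with a floxed STOP, and RE mice carry the same allele together with Syt10-Cre, which is to restore Bmal1 in the suprachiasmatic nucleus, the central clock of the brain. KO and RE thus share the STOP allele in liver, and the RE model depends on where Syt10-Cre is active. Whole livers were taken at 6 times, from ZT0 (lights on) to ZT20 every 4 h, and each genotype and time is a group of 3 livers, 18 groups in all. The sources used here give no sex, age or zygosity. Values are FPKM (fragment numbers corrected for gene length and library size), and differences are on a log2(FPKM + 1) scale, which understates changes of genes with low FPKM. In bulk liver, fewer cells of a type and less RNA per cell cannot be told apart.

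The liver clock is a loop in which BMAL1 and CLOCK bind E-box sequences and switch on their own repressors (the Period and Cryptochrome genes), the REV-ERB receptors and the PAR bZIP factors such as DBP. REV-ERB and ROR receptors compete at elements built around AGGTCA, and PAR bZIP factors bind D-boxes, so output genes can peak at different times. The 8 genes span signalling, protein turnover and metabolism. Nrg4 encodes a secreted ligand of the receptor ErbB4, and Rgs16 a protein that speeds the switching off of G protein alpha subunits. Pcsk4 encodes a proprotein convertase, best known from the testis, that cuts precursor proteins. Usp2 encodes a protease that removes ubiquitin, whereas Dtx4 encodes a ubiquitin ligase of the Deltex family. Upp2 encodes uridine phosphorylase 2, which splits uridine to uracil, and Hacl1 a peroxisomal lyase that shortens 2-hydroxy fatty acids in alpha-oxidation. Lgalsl encodes a galectin-like protein.

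In the RefSeq annotation of GRCm38.p6, the assembly behind mm10, Rgs16 lies at chr1:153740353-153745468, Usp2 at chr9:44067021-44095627 and Upp2 at chr2:58566317-58795846. Nrg4 lies at chr9:55220222-55283654, Pcsk4 at chr10:80321283-80329748 and Dtx4 at chr19:12466329-12502179. Lgalsl lies at chr11:20823355-20831916 and Hacl1 at chr14:31607226-31640965. Values cover whole genes. Usp2 overlaps the long non-coding RNA Gm39325, Upp2 overlaps Acvr1 and the pseudogene Gm13559, and Nrg4 overlaps Fbxo22. The sources used here do not say whether strand was used in the counting, so reads from such shared stretches may count for either gene.

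Promoter windows from RefSeq (GRCm38.p6, 250 bases before to 50 after a gene's start) matched 6 of the 8 genes, in 7 windows, since Upp2 has 2 starts. They were searched on both strands for the E-box CACGTG, its variant CACGTT, the D-box TTATGTAA and the receptor half-site AGGTCA. The E-box and the D-box were in 0 of the 7 windows, against 7.15% and 0.938% of all 32851 windows. The bases before the start lay at chr9:44084670-44084919 for Usp2 and chr11:20831109-20831358 for Lgalsl. These windows and both of Upp2 lie inside the gene spans given above, so the outer starts of these genes were not searched. The half-site was in 2 windows, that of Nrg4 and the second one of Upp2, against 16.3% of all windows, and CACGTT was in that of Nrg4 only, against 4.68%. The 250 bases before these starts are shown because they hold every match except 1, a CACGTT 15 bases after the start of Nrg4. Capitals mark the matches, which lie 188 and 160 bases before the start in Upp2. In Nrg4 they lie 223 bases (AACGTG, the variant on the other strand), 90 and 26 bases (TGACCT, the half-site on the other strand) before it, and no matches overlap.
Upp2, second start, plus strand, chr2:58754934-58755183: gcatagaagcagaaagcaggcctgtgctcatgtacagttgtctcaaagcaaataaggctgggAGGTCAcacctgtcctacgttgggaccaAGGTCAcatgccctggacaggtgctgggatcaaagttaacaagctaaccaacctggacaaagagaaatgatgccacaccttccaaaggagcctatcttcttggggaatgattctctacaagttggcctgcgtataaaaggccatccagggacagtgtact
Nrg4, minus strand, chr9:55283626-55283875: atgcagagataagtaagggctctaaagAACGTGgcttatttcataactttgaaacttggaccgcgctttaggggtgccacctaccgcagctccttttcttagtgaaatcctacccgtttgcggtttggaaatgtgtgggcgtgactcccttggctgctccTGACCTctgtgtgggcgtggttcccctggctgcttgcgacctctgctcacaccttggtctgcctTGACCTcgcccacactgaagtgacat
A match describes these letters only and is not evidence of a bound site. The expression values are per gene and do not separate the starts of Upp2.

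All libraries resembled liver in Ttr and Apoa1, whose lowest values were 4111 and 8840 FPKM. Total FPKM per library ran from 572995 to 751399. Depth is unknown, because the values are not counts. WT liver 0 at ZT0 had the highest summed gut markers of any library (190 FPKM over 6 genes), and RE liver 2 at ZT16 had the highest pancreas sum (22.7 FPKM, against at most 1.80 in KO and 1.75 in WT). Livers are numbered by the column that holds them. Summed markers of bile duct cells (5 genes) ran from 18.1 to 127 FPKM in WT, 26.0 to 171 in KO and 20.7 to 149 in RE. The medians of these sums were 27.5, 68.9 and 64.2. By limma, 2 of the 5 rose in each of KO and RE and 0 fell. The median difference from WT over the 5 genes was -0.16 (log2) in KO and -0.12 in RE, so the higher sums rest on part of the list. Kupffer cell markers (6 genes) ran from 57.8 to 132 FPKM in WT, 36.4 to 132 in KO and 26.9 to 119 in RE, and 3 of 6 fell in KO and 6 of 6 in RE. Of all tested genes, 22.1% rose and 20.2% fell in KO, and 24.2% rose and 21.7% fell in RE. Median sums in WT, KO and RE were 131, 79.6 and 91.9 FPKM for gut, 56.2, 49.0 and 50.4 for endothelium, 71.6, 78.8 and 71.4 for stellate cells and fibroblasts, and 1591, 987 and 986 for fat, a list that holds Car3, which liver also expresses. They were 2.44, 2.11 and 1.23 FPKM for lymphocytes and at most 1.03 FPKM for muscle and pancreas. No bile duct or Kupffer marker was at 0 throughout a genotype, and the part of these cells in the results below was not tested.

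In WT liver Rgs16, Pcsk4, Upp2, Nrg4 and Usp2 peaked between late day and dusk, and in KO and RE their means lay in the lower part of the WT daily range or, for Nrg4, below it. The other 3, Lgalsl, Hacl1 and Dtx4, peaked between late night and dawn in WT and lay near or above the WT high point in KO and RE. The highest and lowest WT times did not overlap for 8 of 8 genes, where 77.8% of all tested genes had such a gap. That gap was present for 3 of 8 genes in KO (49.6% of all tested genes) and for 2 of 8 in RE (64.9%). The 8 genes were picked by these rhythms, so their counts are not read as a result. By limma, a 24 h rhythm was called in 34.8% of tested genes in WT, 0.0366% in KO and 46.8% in RE. Daily rhythms of other genes were thus common in RE liver.

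**Figure D1:**
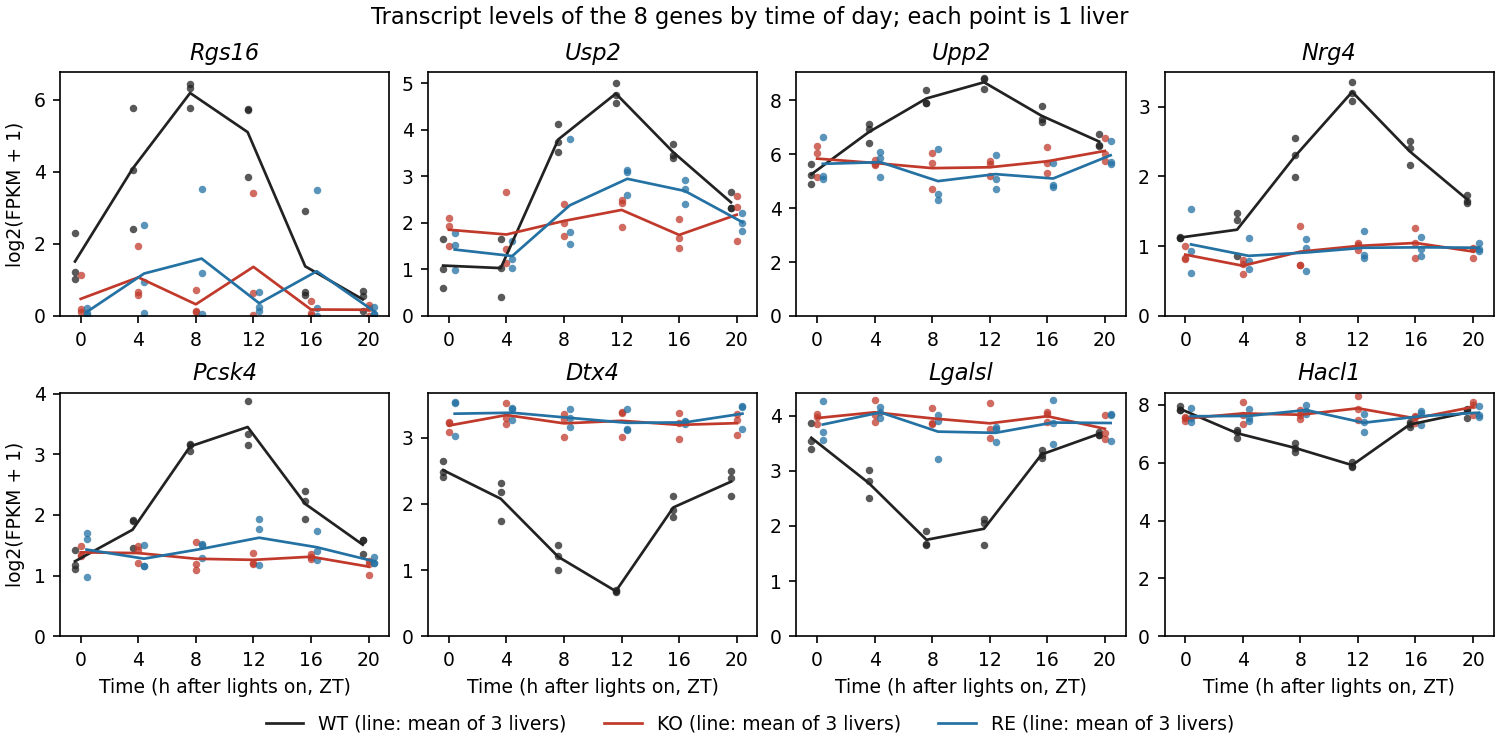
Transcript level of each gene, as log2(FPKM + 1), against time in hours after lights on, for WT, KO and RE; points are single livers and lines join the means of 3 livers. The 5 genes from Rgs16 to Pcsk4 rise to a WT peak at ZT8 or ZT12 and run low in KO and RE, while Dtx4, Lgalsl and Hacl1 dip in WT at ZT8 or ZT12 and run high in KO and RE.

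Nrg4, the secreted ErbB4 ligand, had 7.44, 8.19 and 9.23 FPKM in the 3 WT livers at ZT12 and 1.17, 1.17 and 1.19 at ZT0. The 18 KO livers ran from 0.522 to 1.45 FPKM with a median of 0.853, and the 18 RE livers from 0.537 to 1.88 with a median of 0.923. The WT dusk livers stood clear of every KO and RE liver, and 9 KO and 6 RE livers lay below all WT livers. Its WT amplitude, from mean to peak, was 1.00 (log2, SE 0.07) with a peak at ZT12.6. The amplitude was 0.13 in KO and 0.06 in RE. A gene was tested if a group mean reached 1 FPKM, which held for Nrg4 in 6 of 6 WT groups, 2 KO groups and 1 RE group. Of the 8 genes it had the lowest KO position on the WT swing, 9.89% of that swing below the lowest WT group mean.

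Rgs16, the brake on G protein signalling, swung most. Its WT livers had 54.3, 80.3 and 86.3 FPKM at ZT8 and 0.105, 0.468 and 0.605 FPKM at ZT20, a 187-fold ratio of means. It had the largest 24 h amplitude of the 10932 genes tested in WT, 2.97 (SE 0.33), with a peak at ZT8.33. In KO the 18 livers ran from a listed 0 to 9.73 FPKM with a median of 0.199, and in RE from a listed 0 to 10.6 with a median of 0.172. The medians were low, but single livers were not: KO liver 2 at ZT12 held the 9.73, and RE liver 2 at ZT8 and RE liver 2 at ZT16 held 10.6 and 10.3 FPKM. Those RE livers' companions at the same times had 0.0404 and 1.28 FPKM at ZT8 and a listed 0 and 0.173 FPKM at ZT16. The WT livers at ZT4 were also spread, at 4.38, 15.7 and 53.9 FPKM. RE liver 2 at ZT16 is the library with the highest pancreas marker sum, 22.7 FPKM. The part of other tissue in its Rgs16 value was not tested. Amplitudes were 0.35 in KO and 0.53 in RE, each with an SE of 0.33, and without RE liver 2 of ZT8 the RE amplitude was 0.22.

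Pcsk4, the proprotein convertase, had 7.87, 9.05 and 13.6 FPKM in WT at ZT12 and 1.16, 1.26 and 1.68 at ZT0, with a peak at ZT10.8. KO livers stayed between 1.02 and 1.93 FPKM (median 1.44), and RE livers between 0.971 and 2.80 (median 1.56). No KO or RE liver reached any WT liver of ZT8 or ZT12. The amplitude was 1.13 (SE 0.07) in WT, 0.06 in KO and 0.13 in RE.

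Usp2, the deubiquitinase, had the largest 24 h swing left in RE among the 8 genes on the log2(FPKM + 1) scale. That rank depends on the added 1 FPKM. With 0.1 added in its place, the RE amplitude was 1.20 for Rgs16 and 1.11 for Usp2. WT livers had 22.8, 26.1 and 31.2 FPKM of Usp2 at ZT12 and 0.324, 1.06 and 2.13 at ZT4. RE livers had 5.09, 7.55 and 7.83 FPKM at ZT12 and 1.05, 1.34 and 2.05 at ZT4, so that these times did not overlap. At the same 2 times KO livers had 2.78, 4.41 and 4.59 FPKM and 1.20, 1.73 and 5.35 FPKM, which did overlap. The amplitude was 1.90 (SE 0.15) in WT, 0.85 in RE and 0.12 in KO, and the peak was at ZT12.7 in WT and ZT13.4 in RE. By amplitude it ranked 8th among tested genes in WT and 95th in RE, and the rhythm difference between RE and KO was 0.73 (log2, SE 0.22). RE liver 2 at ZT8, which was high in Rgs16, had 12.9 FPKM of Usp2 against 1.90 and 2.48 in its companions, and without that liver the RE amplitude was 0.85. The WT trough was under the KO and RE levels, with KO above WT at 2 of 6 times and RE likewise at 2.

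Upp2, the uridine phosphorylase of liver, was in WT the most abundant of the 8 per length, at 183 ± 133 FPKM (SD over 18 livers of all times). In KO and RE it averaged 54.7 and 47.6 FPKM, below Hacl1 at 211 and 199. WT livers had 341, 440 and 451 FPKM of Upp2 at ZT12 and 29.0, 36.5 and 48.8 at ZT0. KO livers ran from 25.4 to 97.5 FPKM (median 51.6) and RE livers from 18.7 to 99.0 (median 42.7). Both ranges lay below all WT livers of ZT8, ZT12 and ZT16, and at ZT0 both group means were above WT. The amplitude was 1.53 (SE 0.17) at ZT11.3 in WT, 0.29 in KO and 0.40 in RE, where the fitted peaks lay at ZT21.0 and ZT23.0. RE liver 2 of ZT0 held the 99.0 FPKM, against 33.0 and 36.0 in its companions, and without it the RE amplitude was 0.24.

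Among the genes that peaked towards dawn, Dtx4 showed the clearest separation. This ubiquitin ligase had 4.29, 4.58 and 5.29 FPKM in WT at ZT0 and 0.596, 0.600 and 0.616 at ZT12. KO livers ran from 6.90 to 10.6 FPKM (median 8.54) and RE livers from 7.14 to 10.6 (median 8.71). All 18 KO livers and all 18 RE livers lay above all 18 WT livers, whose highest value was 5.29 FPKM. Of all tested genes, 0.878% had all KO livers above all WT livers, and 0.787% had all RE livers above them. The WT amplitude was 0.87 (SE 0.06) with a peak at ZT22.7, and the amplitudes in KO and RE were 0.04 and 0.08.

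Lgalsl, the galectin-like gene, had 11.6, 11.6 and 12.0 FPKM in WT at ZT20 and 2.15, 2.21 and 2.76 at ZT8. KO livers ran from 10.9 to 18.5 FPKM (median 14.2) and RE livers from 8.31 to 18.4 (median 13.8). Here 12 KO livers and 9 RE livers lay above the highest WT liver, of 13.6 FPKM. The amplitude was 1.05 (SE 0.08) at ZT21.2 in WT, 0.08 in KO and 0.11 in RE.

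Hacl1, the lyase of alpha-oxidation, had 223, 227 and 248 FPKM in WT at ZT0 and 57.1, 57.6 and 63.4 at ZT12. KO livers ran from 162 to 314 FPKM (median 197) and RE livers from 132 to 253 (median 201). These ranges cover the WT high point, and 4 KO livers and 1 RE liver lay above all WT livers. The amplitude was 0.92 (SE 0.07) at ZT22.1 in WT, 0.05 in KO and 0.07 in RE.

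**Figure D2:**
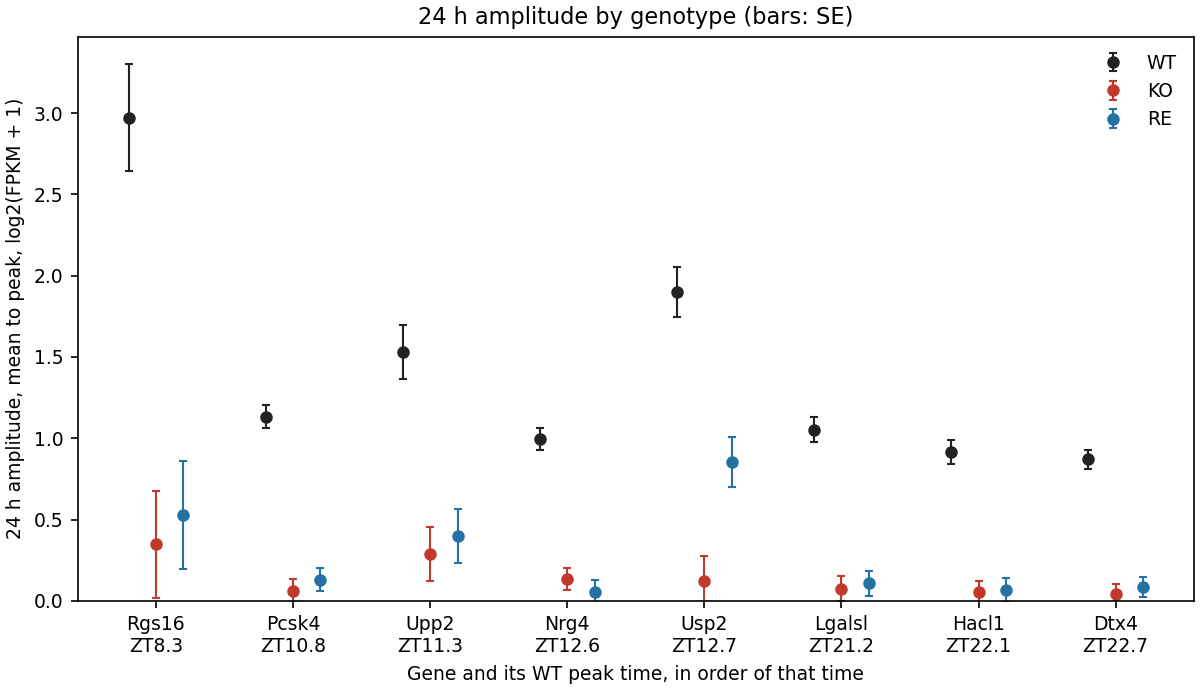
24 h amplitude, from mean to peak on the log2(FPKM + 1) scale, for each gene in WT, KO and RE; genes are ordered by WT peak time, which is printed under each name, and bars are the SE of the fit. WT amplitudes run from 0.87 for Dtx4 to 2.97 for Rgs16, and Usp2 in RE, at 0.85, is the largest value outside WT.

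In these 8 picked genes the mean over the 6 times, called the level here, differed in direction with the time of the WT peak. Whether other rhythmic genes do the same was not tested. In KO the level of the 5 genes that peak between late day and dusk was lower than in WT, by 0.80 (log2) in Usp2 to 2.53 in Rgs16, and that of the 3 genes that peak towards dawn was higher. KO minus WT was -2.53 (SE 0.33) for Rgs16, -1.39 (SE 0.17) for Upp2, -1.06 (SE 0.07) for Nrg4, -0.92 (SE 0.07) for Pcsk4 and -0.80 (SE 0.15) for Usp2. With a pseudocount of 0.1 in place of 1, the Rgs16 difference was larger, -3.84 in KO and -3.71 in RE. KO minus WT was 1.44 (SE 0.06) for Dtx4, 1.09 (SE 0.08) for Lgalsl and 0.64 (SE 0.07) for Hacl1. RE minus WT, which uses the same WT livers, ran from -2.36 for Rgs16 to 1.52 for Dtx4 and had the sign of KO minus WT in 8 of 8 genes. With limma, 8 of 8 genes passed an adjusted p of 0.05 in each comparison, 3 higher and 5 lower. Of all tested genes, 42.3% passed in KO (22.1% higher, 20.2% lower) and 45.9% in RE (24.2% higher, 21.7% lower). The genes were picked for differences between these same groups, so these counts are not read as a result.

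**Figure D3:**
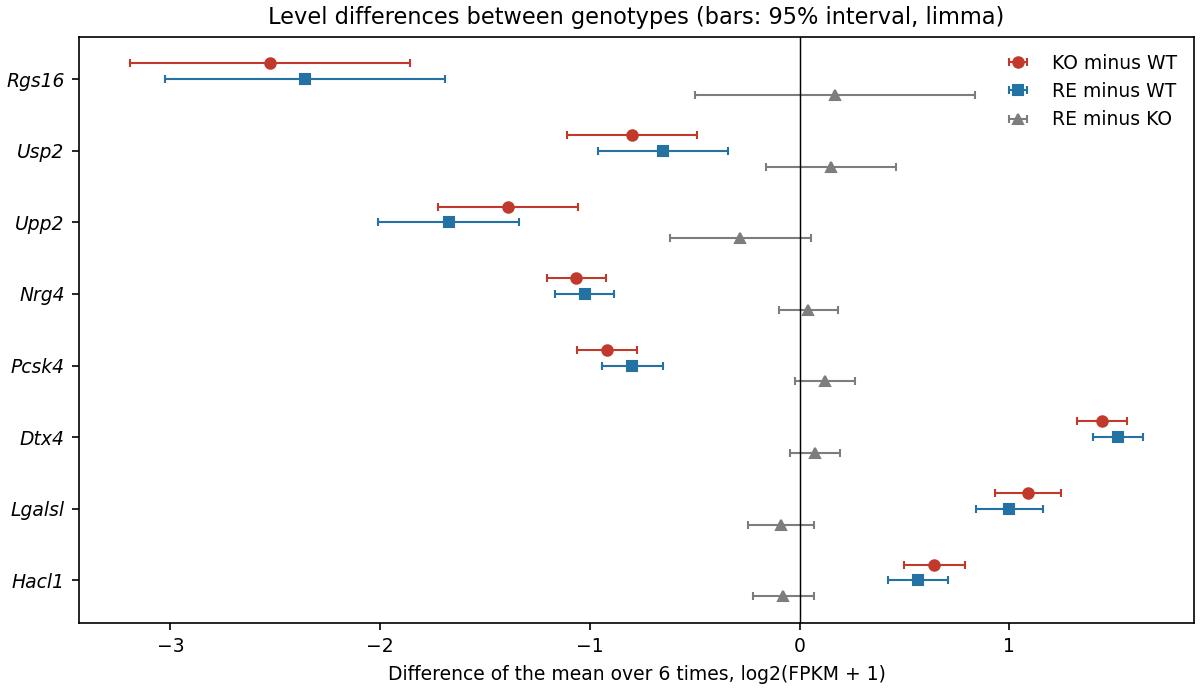
Difference of the mean over 6 times between genotypes, on the log2(FPKM + 1) scale, for each gene; symbols mark KO minus WT, RE minus WT and RE minus KO, and bars are 95% intervals from limma. Rgs16, Usp2, Upp2, Nrg4 and Pcsk4 lie below 0 against WT and Dtx4, Lgalsl and Hacl1 above, while every RE minus KO interval includes 0. The intervals against WT describe size only and are not read as tests, because the genes were picked for differences from WT.

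A direct comparison of RE with KO asks whether these levels differ between livers that both carry the STOP allele. The genes were picked for rhythms lost or changed in both genotypes, which favours genes that are alike in KO and RE, so the result holds for this choice of genes only. None of the 8 genes passed (limma, adjusted p from 0.468 to 0.879), and 0 had an unadjusted p under 0.05. Over all 10932 tested genes the comparison called 0.192%, and 1451 had an unadjusted p under 0.05. The 95% intervals of the difference ran from -0.50 to 0.84 (log2) for Rgs16, -0.16 to 0.46 for Usp2, -0.62 to 0.05 for Upp2 and -0.02 to 0.27 for Pcsk4. They were narrower for Nrg4, from -0.10 to 0.18, and for Dtx4, from -0.04 to 0.19. For Lgalsl the interval was -0.25 to 0.07 and for Hacl1 -0.22 to 0.07. These widths are not comparable between genes, since the added 1 FPKM compresses differences of genes near 1 FPKM, such as Nrg4 and Rgs16 in KO and RE.

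The position of each genotype on the WT daily swing, from 0% at the lowest WT group mean to 100% at the highest, puts the genes on a common scale. KO and RE means lay at 2.41% and 5.36% for Rgs16, 2.53% and 7.99% for Pcsk4, and 13.9% and 5.60% for Upp2. Nrg4 lay below the swing in both, at -9.89% and -7.97%. Usp2 lay higher, at 25.2% and 29.2%. Hacl1 lay just under the top at 91.6% and 87.6%, Lgalsl above it at 113% and 109%, and Dtx4 far above it at 140% and 144%. Dtx4 in KO and RE livers was therefore higher than at any time of the WT day, whereas Hacl1 stayed at a level that WT liver reaches around ZT20 and ZT0.

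**Figure D4:**
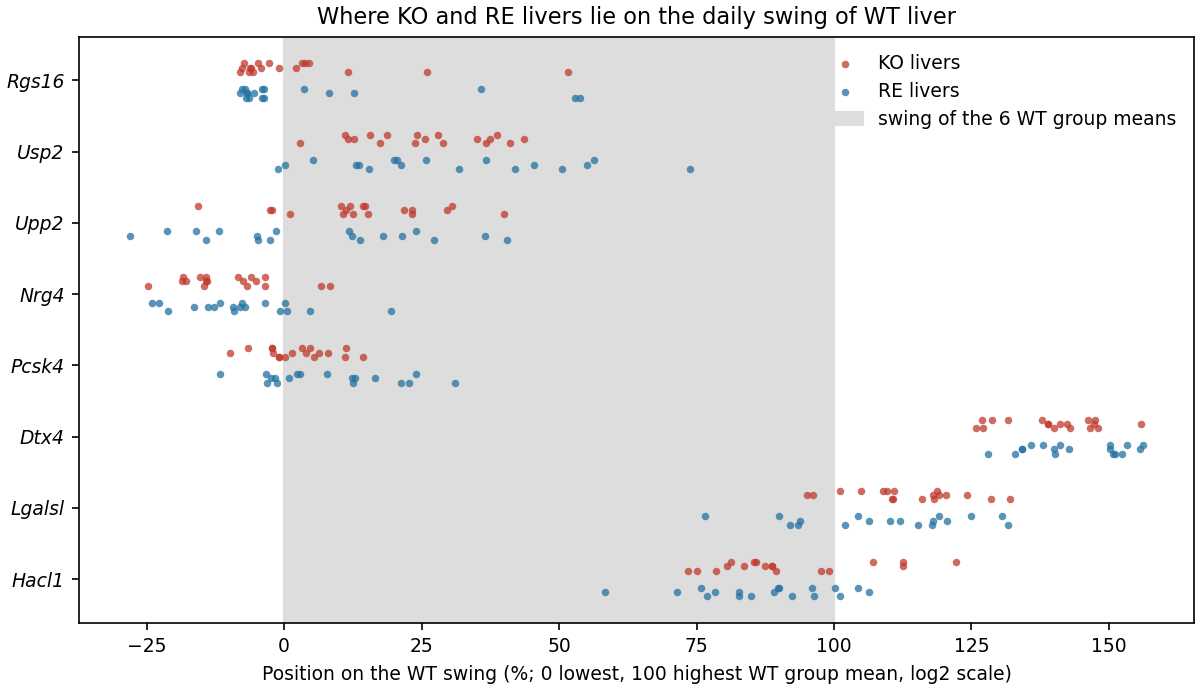
Each KO and RE liver placed on the daily swing of WT liver for each gene, in percent of the distance from the lowest (0) to the highest (100) WT group mean on the log2(FPKM + 1) scale; the grey band is that swing. Most livers sit at the low end or below it for Rgs16, Upp2, Nrg4 and Pcsk4, between the ends for Usp2, at the top for Hacl1, around or above the top for Lgalsl, and all above it for Dtx4.

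A 12 h component, tested with 3 points per cycle, asks whether the daily curves depart from a single cosine. None of the 8 genes passed in WT (limma, adjusted p from 0.199 to 0.989), in KO (0.943 to 0.996) or in RE (0.614 to 0.991), and the shares of all tested genes called were 0.247%, 0% and 0%. At an unadjusted p under 0.05 there were 5 of the 8 in WT and 0 in KO and RE, and 661, 497 and 987 of all 10932 tested genes in WT, KO and RE. The smallest was for Dtx4 (unadjusted p 0.000897, adjusted p 0.199 with limma), whose 12 h amplitude of 0.24 (log2, SE 0.06) was 0.278 of its 24 h amplitude. On a pseudocount of 0.1 the Dtx4 component passed (adjusted p 0.00111, limma), and likewise without WT liver 2 of ZT4 (adjusted p 0.0287).

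Genes with the most similar pattern were found by the correlation of the 18 group means with 6893 other tested genes of at least 5 FPKM in a group. The group means share libraries and time points, so these values describe likeness only. Genes were ranked by Pearson r. Spearman's rho, which compares rank order over the same 18 group means, was lower for every pair named below. It ran from 0.525 (Pcsk4 and P2ry2) to 0.909 (Upp2 and Per3). Lgalsl was closest to Arntl itself (Pearson r = 0.989, n = 18 group means) and to Blcap (0.971). The Arntl value covers the whole gene and checks neither the STOP allele nor the protein, and its mean was 4.78 FPKM in WT and higher, at 12.0 and 11.4, in KO and RE. Dtx4 was closest to Clpx (0.978), a mitochondrial chaperone subunit, and Wdr91 (0.962), and Hacl1 to Leap2 (0.945), a liver peptide, and Tjp3 (0.941). Clpx averaged 61.4 FPKM in WT, and 152 and 163 in KO and RE, and Leap2 249, 331 and 351.

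On the dusk side, Pcsk4 and Upp2 both had Ciart, a clock repressor, among their 2 nearest genes (0.981 and 0.939). Upp2 was nearest to Per3 (0.963) and Pcsk4 was next to P2ry2 (0.935). Nrg4 was closest to Nrep (0.962) and to Gys2 (0.961), with a Spearman's rho of only 0.536 and 0.622. Gys2, the liver glycogen synthase, averaged 103 FPKM in WT against 34.7 and 37.7 in KO and RE. Rgs16 was closest to Ulk1 (0.940), the kinase that starts autophagy, and Fbxo34 (0.937). Usp2 was closest to Crcp (0.909) and to Ccrn4l (0.908), which encodes Nocturnin. Ccrn4l resembled Usp2 in keeping a swing in RE, with amplitudes of 1.60 in WT, 0.14 in KO and 1.32 in RE and a RE peak at ZT14.1. As a reference, Dbp averaged 23.3 FPKM in WT against 1.81 and 1.62 in KO and RE, and Nr1d1 17.7, 0.833 and 0.838.

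The relatives of the 8 genes were described from lists, with the 8 left out, to see whether their families shared the pattern. Among all 10932 tested genes, 9.06% had a 24 h rhythm that differed between KO and WT, and 14.1% one that differed between RE and WT. At an unadjusted p under 0.05 (limma) there were 2563 and 3208. In level, 42.3% of all tested genes differed in KO (22.1% higher, 20.2% lower) and 45.9% in RE (24.2% higher, 21.7% lower). The level counts of the families below stand beside these shares and were not tested against them. Of 10 tested genes of G protein signalling around Rgs16, 0 had a rhythm difference in either comparison (limma, with 2 and 1 at an unadjusted p under 0.05). Their level fell in 4 genes in KO and 6 in RE and rose in none. Rgs3, one of them, averaged 3.02 FPKM in WT against 1.28 and 1.56 in KO and RE (adjusted p 6.16e-05 and 0.00131, limma), and Rgs12 1.27, 0.838 and 0.568 (adjusted p 1.24e-05 and 5.41e-11).

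Of 35 tested ubiquitin-specific proteases besides Usp2, 1 had a changed rhythm in KO and 5 in RE. The one in KO was Usp18, which removes the ubiquitin-like ISG15 and averaged 11.3 FPKM at its WT high time, ZT4, and 3.68 at ZT16. Levels in this family rose in 3 and fell in 4 genes in KO, and rose in 4 and fell in 4 in RE. Of 15 tested Deltex and Notch genes, 0 changed rhythm in KO (4 at an unadjusted p under 0.05, limma) and 2 in RE, and their levels rose in 1 and fell in 5 in KO and fell in 7 in RE. No tested relative of Dtx4 in this list rose in RE.

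Pyrimidine nucleoside genes, the pathway of Upp2, changed rhythm in 5 of 24 in KO and in 3 in RE, and in level 8 rose and 4 fell in KO and 8 rose and 5 fell in RE. Tymp, thymidine phosphorylase, Cda, cytidine deaminase, and Nt5e, an ecto-nucleotidase, were the 3 with the smallest p in KO. Tymp averaged 47.1 FPKM at ZT0 and 16.6 at ZT16 in WT, and Cda 21.0 at ZT0 and 4.64 at ZT12. Both were high when Upp2 was low in WT. Upp1, the other uridine phosphorylase, had no called rhythm in WT (adjusted p 0.954, limma), but its level differed: it fell by 0.79 on the log2 scale in KO (SE 0.09, adjusted p 1.02e-09) and in RE by 0.78 (adjusted p 1.34e-09). Its 18 WT livers ran from 1.34 to 4.04 FPKM, KO livers from 0.593 to 1.43 and RE livers from 0.304 to 1.63, so the groups overlapped only at their edges. The levels of both uridine phosphorylases were therefore lower in KO and RE, and the rhythm of Upp1 in WT, with an amplitude of 0.03, was far smaller than that of Upp2.

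Peroxisomal oxidation genes, the setting of Hacl1, changed level in 19 of 24 in KO (7 higher, 12 lower) and in 18 in RE (9 and 9). Their rhythm differed from WT in 3 in KO and in 11 in RE. Phyh, the hydroxylase that acts before Hacl1 on phytanic acid, averaged 1616 FPKM in WT against 1450 and 1595 in KO and RE. Its level fell by 0.16 in KO (adjusted p 0.0320, limma), a call lost in 8 of 61 other settings, and RE minus WT was -0.03 (adjusted p 0.715). Aldh3a2, the fatty aldehyde dehydrogenase that acts after Hacl1, was named after its values were seen. Its livers ran from 51.4 to 162 FPKM in WT, from 16.0 to 45.2 in KO and from 14.4 to 59.0 in RE, and its level fell by 1.82 in KO (SE 0.11, adjusted p 4.88e-17, limma) and in RE by 1.93 (adjusted p 7.38e-18). Along this route the level was thus lower for Aldh3a2 and higher for Hacl1 in both genotypes. Crot, Acox2 and Acaa1a, enzymes of peroxisomal beta-oxidation and of export of its products, were the 3 whose rhythm differed in KO.

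Of 7 tested galectins besides Lgalsl, 2 differed in rhythm in KO and 3 in RE, and levels rose in 1 and fell in 1 in KO and rose in 1 and fell in 2 in RE. Lgals9 was the one that rose, from a mean of 359 FPKM in WT to 536 and 521 in KO and RE (adjusted p 2.39e-15 and 2.59e-14, limma). In Lgals2 the ZT0 livers of WT were high, and the highest, 60.5 FPKM, was WT liver 0, the library with the highest gut markers, against 3.91 in the next. Without that liver its rhythm difference was 0.53 in place of 0.96 and was still called. Of 6 tested proprotein convertases besides Pcsk4, Pcsk5 and Pcsk6 differed in rhythm in KO, and 1 rose and 3 fell in level in both genotypes. Of 6 tested genes of ErbB signalling around Nrg4, 0 differed in rhythm in KO or RE (limma, with 3 and 0 at an unadjusted p under 0.05). The ligands Tgfa and Btc and the receptors Egfr and Erbb3 did not pass in level. The 2 level calls, named after their values were seen, were lower values of Errfi1, an inhibitor of the receptors, in KO (adjusted p 0.0115, limma) and of Adam17, a protease that releases ligands, in RE (adjusted p 0.0376).

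Rhythm differed in 19 of 19 core clock genes between KO and WT and in 17 of 19 between RE and WT. Of 14 other clock outputs, 11 and 10 differed. Both lists were chosen with earlier results known, so these counts are not read as a contrast with the families above. Levels of the core clock genes rose in 7 and fell in 8 in KO and rose in 7 and fell in 9 in RE, and those of the other outputs rose in 4 and fell in 8 in each. Between RE and KO, a rhythm difference was called in 1 of the 19 and 1 of the 14, where 3.07% of all tested genes were called.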

How the data were processed

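RNA of 54 whole mouse livers was sequenced, 3 per genotype and time. TopHat and the build mm10 are named in the submitters' processing notes, and the sources used here give no TopHat version, quantifier or annotation. The authors deposited FPKM for 24346 gene symbols, with no counts, so depth is unknown and precision rests on the spread between livers. The labels do not say that the livers came from separate animals, so p-values measure only the spread between these samples. Columns were assigned to genotype and time only.

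Values were analysed as log2(FPKM + 1). Tested were the 10932 genes whose mean reached 1 FPKM in some group, all 8 genes among them, which were fitted in 1 model of 18 group means with limma 3.58.1 in R 4.3.3 (eBayes with trend, 36 residual degrees of freedom, two-sided tests), and 13414 genes were left out. The level is the mean over the 6 times, and 24 h and 12 h components are cosine and sine contrasts of the group means, tested by limma's moderated F. Adjustment was by Benjamini-Hochberg over all tested genes, with calls at an adjusted p below 0.05. The pipeline was tested on simulated data. Figures and motif searches used Python 3.11.15.

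The 8 genes, the lists of relatives and the marker lists were chosen with earlier results of these data known. For the level tests planned for the 8 genes against WT, sizes, SEs, intervals and counts are given. Their single p-values are left out, because the same comparison chose the genes. Named besides the 8 genes were, for each, the 2 genes of highest correlation (at least 5 FPKM in a group, no unnamed gene models or small RNAs), up to 3 genes per list with the smallest adjusted p in the rhythm difference of KO from WT, their closest relatives Upp1 and Phyh, RGS genes called in level, and Arntl, Dbp and Nr1d1. A gene that the rule selects is not reported here. Markers of bile duct, Kupffer cells, endothelium, stellate cells with fibroblasts, lymphocytes, gut, pancreas, muscle and fat were summed per library. Alternatives were a pseudocount of 0.1, filters at 0 and at 5 FPKM, median-ratio scaling, genotypes compared alone, robust eBayes, each library left out and, chosen after seeing the data, WT liver 0 at ZT0 and RE liver 2 at ZT16 left out together.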

Additional observations from a re-analysis of the deposited data

Results flagged for a closer look

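The following relatives of the 8 genes had a 24 h rhythm that differed between KO and WT by limma's test of the difference itself, adjusted over all tested genes. The value is the length of the difference between the rhythms, in log2 units. It was 0.87 for Usp18 (adjusted p 0.000440), 0.78 for Tymp (adjusted p 0.00710), 0.80 for Cda (adjusted p 0.00735) and 0.67 for Crot (adjusted p 0.0144). It was 0.41 for Lgals9 (adjusted p 2.63e-05), 0.36 for Acox2 (adjusted p 0.00903) and 0.41 for Acaa1a (adjusted p 0.0131). These 7 calls were kept in all 61 other settings.

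In 4 genes the call was less stable. For Nt5e the difference was 0.65 (adjusted p 0.0296) and the call was kept in 54 of 61 settings. For Pcsk6 it was 0.27 (adjusted p 0.0432), kept in 38 of 61, and for Pcsk5 0.24 (adjusted p 0.0484), kept in 23 of 60. For Lgals2 it was 0.96 (adjusted p 0.0487), kept in 11 of 61. Lgals2 averaged 22.3 FPKM in WT at ZT0 and 0.0749 at ZT4, and a listed 0 occurred in each genotype.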

How the results depend on the processing

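The level differences of the 8 genes from WT kept their direction in 112 of 112 comparisons under other settings and in 864 of 864 with a library left out. Part of these outcomes were fixed beforehand. KO minus WT does not change when an RE library is left out, nor RE minus WT when a KO library is. Filters, robust eBayes and genotypes compared alone leave the size of a difference unchanged. With a pseudocount of 0.1 the Rgs16 level difference moved to -3.84 in KO and -3.71 in RE, and its amplitude to 0.85 in KO and 1.20 in RE. Amplitudes of the 8 genes in KO and RE near their SE also moved by over 1.5 times with single livers left out. RE minus KO of Rgs16 ran from -0.019 (without RE liver 2 of ZT16) to 0.34 (without KO liver 2 of ZT12) with 1 library left out and was -0.019 without WT liver 0 of ZT0 and RE liver 2 of ZT16. That of Nrg4 ran from -0.0017 (without RE liver 2 of ZT0) to 0.074, and RE minus WT of Phyh from -0.059 to 0.0034 (without RE liver 2 of ZT16) and was 0.0051 with both libraries left out. None of these passed the test. The cause was not tested. Counts of all tested genes moved by over 1.5 times as follows. Without a filter, the 12 h component called 1 gene in KO and 1 in RE, and the rhythm difference of RE from KO called 191 (against 336). With a filter at 5 FPKM, which tests fewer genes, the 12 h component in WT called 17 (against 27), level calls among G protein signalling genes were 1 in KO and 3 in RE (against 4 and 6), among Deltex and Notch genes 3 and 2 (against 6 and 7) and among ErbB genes 0 in RE (against 1, and 4 in KO and 3 in RE without a filter). Galectin level calls in KO were 4 (against 2) with genotypes compared alone and with both libraries left out. With genotypes compared alone, the level of RE against KO called 0 (against 21), the 12 h component in WT 10, the 24 h rhythm 1 in KO (against 4) and 3107 in RE (against 5116), and the rhythm difference of RE from KO 2. With both libraries left out, the level of RE against KO called 82. With 1 library left out at a time, counts ran from 13 to 172 for the level of RE against KO, 16 to 54 for the 12 h component in WT and 0 to 1 in RE, 0 to 161 for the 24 h rhythm in KO and 145 to 686 for the rhythm difference of RE from KO. No paired analysis was possible because the columns carry no replicate number of the labels.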

Other observations

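RE liver 2 at ZT8 was high in several of the genes described. It held 10.6 FPKM of Rgs16 and 12.9 of Usp2, the highest RE value of each, and 71.9 of Upp2, against 18.7 and 22.1 in its companions at that time. Among their relatives it held the highest RE value of Tymp (109 FPKM), Rgs3 (3.28), Pcsk6 (27.1), Phyh (1922) and Aldh3a2 (59.0). Its gut marker sum, 154 FPKM, was the highest in RE but lay within the WT range of 81.2 to 190 FPKM. This liver was singled out after its values were seen.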
